A study of Homo sapiens and Mus musculus with 4 samples.

Results

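The genes described here are the CD4 and CD8 coreceptors and the factors of the CD4 and CD8 lineages. They were 9 listed genes: CD4, CD8A and CD8B (the coreceptors), ZBTB7B, RUNX1, RUNX3, CBFB and TOX (nuclear factors of lineage choice) and THEMIS (a signaling protein of thymocyte selection). Each was read as the human gene in the human lines and as the mouse gene of the same symbol in the mouse lines, with Cd8b1 for CD8B. This gave 18 of the 60736 rows of the expression table, 9 of 32738 human rows and 9 of 27998 mouse rows. All 18 rows were found.

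Bulk RNA sequencing was applied to 4 lymphocyte cell lines, with 1 library each, to give references for a benchmark of single-cell methods. Jurkat (a human T-cell leukemia line, which the study calls CD4+ T cells) and TALL104 (a human T-cell leukemia line, called CD8+ T cells and grown with interleukin-2) formed the human pair. EL4 (a mouse T-cell lymphoma line, called CD4+ T cells) and IVA12 (a mouse hybridoma, called B cells) formed the mouse pair. Apart from interleukin-2 in the TALL104 medium, no line carried a treatment or an engineered allele in the labels or the methods, and each is a long-cultured line rather than a primary cell. The growth medium also differed between the lines.

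During T-cell development, thymocytes pass through a stage at which they carry both coreceptors and then keep one of them. CD4 binds MHC class II and CD8 binds MHC class I, and both bring the kinase LCK to the T-cell receptor. CD8 acts as a pair of alpha chains or as an alpha and a beta chain. ZBTB7B (also called ThPOK) directs the helper lineage and represses CD8 and RUNX3, whereas RUNX3 with its partner CBFB silences CD4 and favors the cytotoxic lineage.

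Levels are FPKM, that is reads scaled by gene length and library size, so levels of different genes can be set side by side. The library totals recovered from the values ranged from 25286728 reads in IVA12 to 34783047 in Jurkat. Intervals in parentheses are 95% intervals for the counting of reads (exact Poisson for a level, exact binomial for a ratio), and they cover counting error only. Without replicates the spread between cultures is unknown, no test was made, and the line and its library cannot be told apart. Between lines, fewer cells that express a gene and less RNA per cell cannot be told apart either. A gene was counted as different when FPKM + 1 differed by more than 1.5-fold. An FPKM of 1 was taken as the detection level.

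In the human pair, 7 of the 9 genes passed 1.5-fold, 4 of them higher in Jurkat (CD4, CD8B, RUNX1 and CBFB) and 3 higher in TALL104 (CD8A, ZBTB7B and RUNX3). Among all human genes 25.3% passed 1.5-fold (13.8% higher in Jurkat and 11.4% higher in TALL104), and of genes that reached 1 FPKM in a human line 62.6% did (34.2% and 28.4%). Of the 9 genes, 8 reached 1 FPKM in either human line. CD4 did not, and of the 8 genes 6 passed 1.5-fold, 3 higher in Jurkat and 3 higher in TALL104. TOX and THEMIS stayed within 1.5-fold. The median log2 ratio of the 9 genes was 0.29 (Jurkat over TALL104, on FPKM + 1), against 0 over all human genes and 0.10 over those that reached 1 FPKM.

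In the mouse pair, 6 of the 9 genes passed, of which 5 were higher in EL4 (Runx1, Runx3, Cbfb, Tox and Themis) and 1 was higher in IVA12 (Zbtb7b). The background was 21% over all mouse genes, with 9.75% higher in EL4 and 11.2% higher in IVA12, and of genes that reached 1 FPKM in a mouse line 50.3% passed, 23.8% higher in EL4 and 26.5% higher in IVA12. The 6 genes that passed were also the 6 that reached 1 FPKM in either mouse line. The remaining 3 were the coreceptor genes. The median log2 ratio (EL4 over IVA12) was 0.83, against 0 over all mouse genes and -0.04 over those that reached 1 FPKM.

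**Figure D1:**
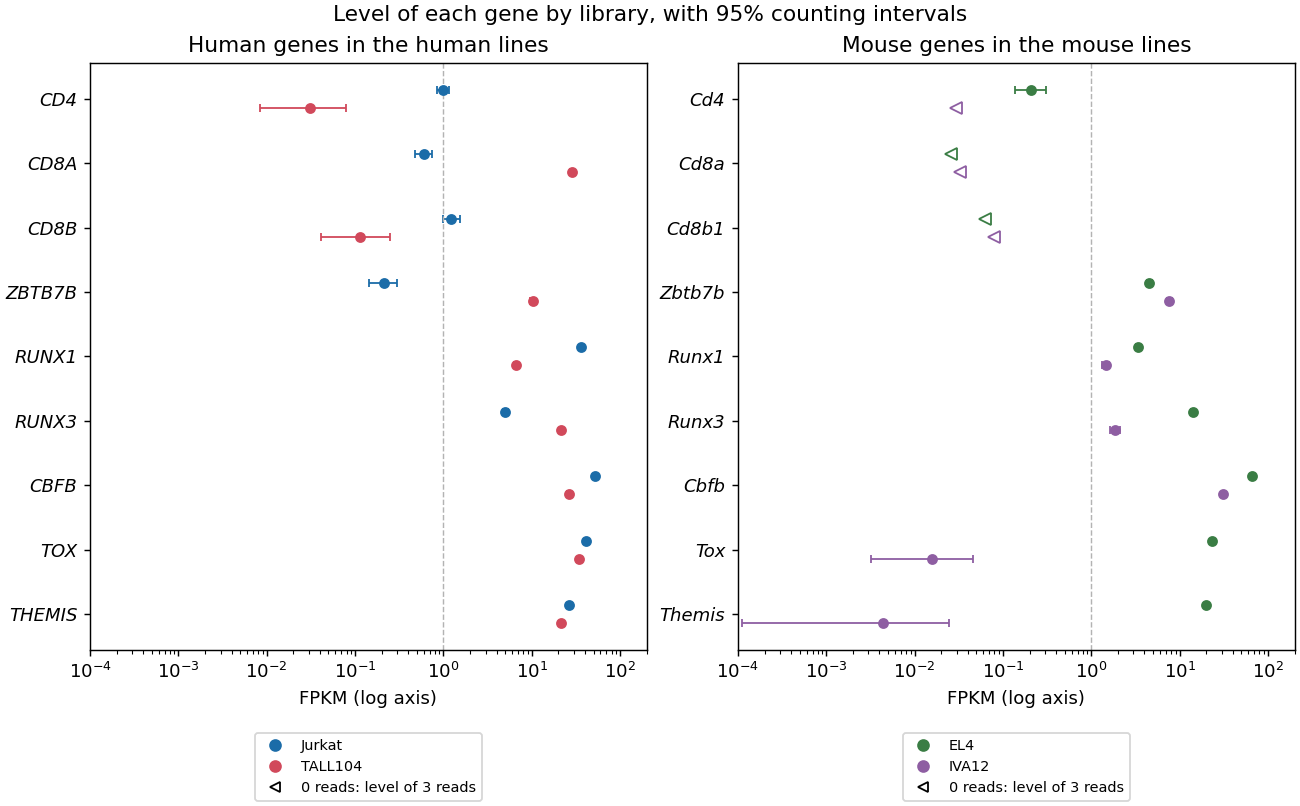
FPKM of each of the 9 genes (log axis) in the human lines (left) and of their mouse counterparts in the mouse lines (right), with points for libraries, bars for 95% counting intervals and open triangles at the level of 3 reads where a library had 0 reads. CD8A and ZBTB7B sit far to the right in TALL104, and Tox and Themis sit at 3 reads and 1 read in IVA12.

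CD4, the coreceptor of helper T cells, was at or below the detection level in every line. Human CD4 lies at chr12:6896024-6929965 (hg19, plus strand) and mouse Cd4 at chr6:124864692-124888221 (mm10, minus strand), and both are protein-coding. Jurkat held 157 reads of CD4, or 0.985 FPKM, and TALL104 held 4 reads, or 0.0308 FPKM. Mouse rows of the 9 genes held up to 3 reads in TALL104, so 4 reads are close in size to its counts on rows of the other species. The level in Jurkat was 32.0 times that in TALL104 (12.2 to 119), but it ranked 10885 in its library, just outside the 10857 human genes with at least 1 FPKM. The log2 ratio on FPKM + 1 was 0.95. In EL4, which the study also calls CD4+, Cd4 had 27 reads and 0.208 FPKM (0.137 to 0.303). IVA12 had 0 reads, which allows up to 0.0294 FPKM at 3 reads, and against this floor Cd4 was at least 7.08-fold higher in EL4, while the lower limit of the 95% counting interval of the ratio was 5.37. On FPKM + 1 this pair stayed within 1.5-fold (log2 ratio 0.27). In order of level CD4 ran from Jurkat through EL4 to TALL104 and IVA12, and the last 2 had overlapping intervals. This order sets human beside mouse genes and is descriptive only.

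CD8A, which encodes the alpha chain of CD8, had the largest log2 difference of the 9 genes on FPKM + 1 between the human lines. It lies at chr2:87011733-87035519 (hg19, minus strand). TALL104 had 2918 reads of CD8A and 28.3 FPKM (27.3 to 29.3), which ranked 1494 in that library. Jurkat had 76 reads and 0.601 FPKM. The ratio of TALL104 to Jurkat was 47.1 (37.5 to 60.0), with a log2 ratio of -4.19 for Jurkat over TALL104.

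CD8B, which encodes the beta chain, had the opposite order. It lies next to CD8A at chr2:87042462-87089047 (hg19, minus strand), with 6942 bases between the gene bodies. Jurkat had 80 reads of CD8B and 1.23 FPKM (0.978 to 1.54), whereas TALL104 had 6 reads and 0.114 FPKM (0.0417 to 0.247). The level was 10.9 times higher in Jurkat (4.78 to 30.5). Within TALL104 the CD8A level was 249 times the CD8B level (114 to 680), and within Jurkat it was 0.487 times (0.351 to 0.675). The CD8 transcripts of TALL104 were thus almost entirely those of the alpha chain, and the line labeled CD4+ carried more CD8B than the line labeled CD8+. In Jurkat CD4 was the higher of CD4 and CD8A by 1.64 times (1.24 to 2.19), and CD8B was the highest of the 3 coreceptor genes by its point value, with an interval that overlapped that of CD4. Of the 100-base windows of annotated CD8B transcripts, 23% also occur in the near copy CD8B2, for which no row was found in the expression table. The length recovered for CD8B was 1864 bases, against 5279 in the annotation used here. The counting of CD8B is therefore less certain than that of the other genes.

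The CD8 genes had no reads in the mouse pair. Cd8a (chr6:71373427-71379173, mm10, plus strand) and Cd8b1 (chr6:71322788-71337494, plus strand) were at 0 reads in both EL4 and IVA12. A count of 0 allows up to 0.0257 FPKM of Cd8a in EL4 and 0.0326 in IVA12, and up to 0.0629 and 0.0800 FPKM of Cd8b1. These limits rest on annotated gene lengths, since a row without reads gives none. No ratio was therefore taken for either gene. Genes on both sides of this locus had reads at unequal levels. The nearest, Smyd1, lies 554 bases below Cd8b1 and had 0.00684 FPKM in EL4 and 0.226 in IVA12. Krcc1, which lies 37468 bases below Cd8b1, had 41.0 FPKM in EL4 and 37.0 in IVA12, and Rmnd5a, 9460 bases above Cd8a, had 22.5 and 18.3 FPKM. These neighbors were chosen after their values were seen. At the human locus RMND5A had 27.4 FPKM in Jurkat and 12.8 in TALL104, and RGPD1 had 1.97 and 0.0205, so both were higher in Jurkat, as CD8B was. PLGLB1 had 0.0982 FPKM in Jurkat and 0.668 in TALL104, the direction of CD8A, and RNF103-CHMP3 was listed at 0 in both lines.

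The genes around CD4 were read in the same way. PTMS had 15.6 FPKM in Jurkat and 8.69 in TALL104, and Ptms had 37.6 in EL4 and 13.3 in IVA12. GPR162, whose gene body begins 824 bases beyond CD4, had 0.907 FPKM in Jurkat and 0.0749 in TALL104, and mouse Gpr162 had 1.44 in EL4 and 0.113 in IVA12. Each was higher in the line of its pair in which CD4 or Cd4 was higher. LAG3, an inhibitory receptor related to CD4 in structure, had 0.0188 FPKM in Jurkat (2 reads) and 0.623 in TALL104 (54 reads), the reverse of CD4. Lag3 was at 0.206 FPKM in EL4 and 0.0938 in IVA12.

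ZBTB7B, the zinc finger factor of the helper lineage, was higher in the human line labeled CD8+ than in the line labeled CD4+. It lies at chr1:154975106-154990999 (hg19, plus strand) and overlaps DCST2 on the other strand. TALL104 had 1229 reads and 10.2 FPKM (9.66 to 10.8), and Jurkat had 31 reads and 0.210 FPKM. The ratio of TALL104 to Jurkat was 48.6 (34.1 to 71.9), close to that of CD8A, and the log2 ratio on FPKM + 1 was -3.21 for Jurkat over TALL104. Zbtb7b (chr3:89377644-89394776, mm10, minus strand) had 818 reads and 4.55 FPKM in EL4 and 1079 reads and 7.63 FPKM in IVA12, a ratio of 1.68 toward the B-lineage line (1.53 to 1.84). It was the only gene of the 9 that was past 1.5-fold with the higher level in IVA12. Its order over all 4 lines was TALL104, IVA12, EL4 and Jurkat, with no overlap between neighboring intervals. Across species this order is descriptive only. The human gene was counted over 4243 bases and the mouse gene over 5591, and the intervals do not cover differences in length or annotation.

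RUNX3, the factor of the cytotoxic lineage, was higher in the same human line as CD8A. RUNX3 lies at chr1:25226002-25291612 (hg19, minus strand) and overlaps RUNX3-AS1 on the other strand. It had 2811 reads and 21.5 FPKM in TALL104 and 807 reads and 5.04 FPKM in Jurkat. The ratio of TALL104 to Jurkat was 4.27 (3.95 to 4.63). Runx3 (chr4:135120652-135177990, mm10, plus strand) had 2274 reads and 14.1 FPKM in EL4 and 235 reads and 1.86 FPKM in IVA12, a ratio of 7.61 (6.65 to 8.74). EL4, the mouse line labeled CD4+, thus had more Runx3 per length and depth than IVA12, with no Cd8a or Cd8b1 reads. IVA12 was the only line in which ZBTB7B exceeded RUNX3, by 4.11 times (3.56 to 4.75). The level of ZBTB7B was 0.475 times that of RUNX3 in TALL104, 0.322 times in EL4 and 0.0417 times in Jurkat.

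RUNX1, a factor of blood stem cells and early thymocytes that also acts in CD4 silencing before lineage choice, went the other way in the human pair. It lies at chr21:36160098-37376965 (hg19, minus strand). RUNX1 overlaps 3 annotated genes, of which FKSG68 and a gene without a symbol are on its own strand. Jurkat had 19537 reads and 36.1 FPKM, and TALL104 had 2915 reads and 6.60 FPKM. The ratio was 5.46 (5.25 to 5.68). In the mouse pair Runx1 (chr16:92601466-92826149, mm10, minus strand) was higher in the same line as Runx3, with 1279 reads and 3.36 FPKM in EL4 and 435 reads and 1.45 FPKM in IVA12. That ratio was 2.31 (2.07 to 2.58), so RUNX1 and RUNX3 moved oppositely in the human pair and together in the mouse pair.

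The balance of the RUNX genes differed from line to line. RUNX3 made up 11.4% of the summed RUNX1, RUNX2 and RUNX3 level in Jurkat (10.7% to 12.2%) and 74.0% in TALL104 (73.0% to 75.0%). Runx3 made up 59.8% in EL4 (58.5% to 61.1%) and 55.6% in IVA12 (51.6% to 59.4%). The human lines lay far apart in this share, whereas the mouse lines lay close, with overlapping intervals. The closeness of the mouse lines depended on Runx2, since without it Runx3 held 80.8% of the summed Runx1 and Runx3 level in EL4 and 56.1% in IVA12. RUNX1 was the leading member in Jurkat at 81.7%, and it held 22.7% in TALL104, 14.2% in EL4 and 43.5% in IVA12. RUNX2, which is best known for bone formation, held 6.83% in Jurkat, 3.33% in TALL104 and 0.937% in IVA12 but 26.0% in EL4. In EL4 the second RUNX gene was therefore Runx2, at 6.15 FPKM, and not Runx1. The share depends on gene length, since RUNX1 was counted over 15574 bases and RUNX3 over 4605, and by reads alone RUNX3 held 47.2% in TALL104, 42.9% in EL4, 34.7% in IVA12 and 3.81% in Jurkat.

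CBFB, which encodes the non-DNA-binding partner of all RUNX proteins, was the highest of the 9 genes in Jurkat, EL4 and IVA12, and in TALL104 only TOX and CD8A were higher. It lies at chr16:67062887-67134961 (hg19, plus strand). CBFB had 7531 reads and 52.4 FPKM in Jurkat and 3066 reads and 26.2 FPKM in TALL104, a ratio of 2.0 (1.92 to 2.09). Cbfb (chr8:105170674-105217989, mm10, plus strand) had 7442 reads and 66.5 FPKM in EL4 and 2734 reads and 31.1 FPKM in IVA12, a ratio of 2.14 (2.05 to 2.24). The partner thus varied over a narrower range than the RUNX genes it binds. Its level was 0.900 times the summed RUNX level in TALL104, 1.19 times in Jurkat, 2.81 times in EL4 and 9.29 times in IVA12. The high value in IVA12 came with a summed RUNX level of 3.34 FPKM, against 23.6 in EL4, 29.1 in TALL104 and 44.1 in Jurkat.

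**Figure D2:**
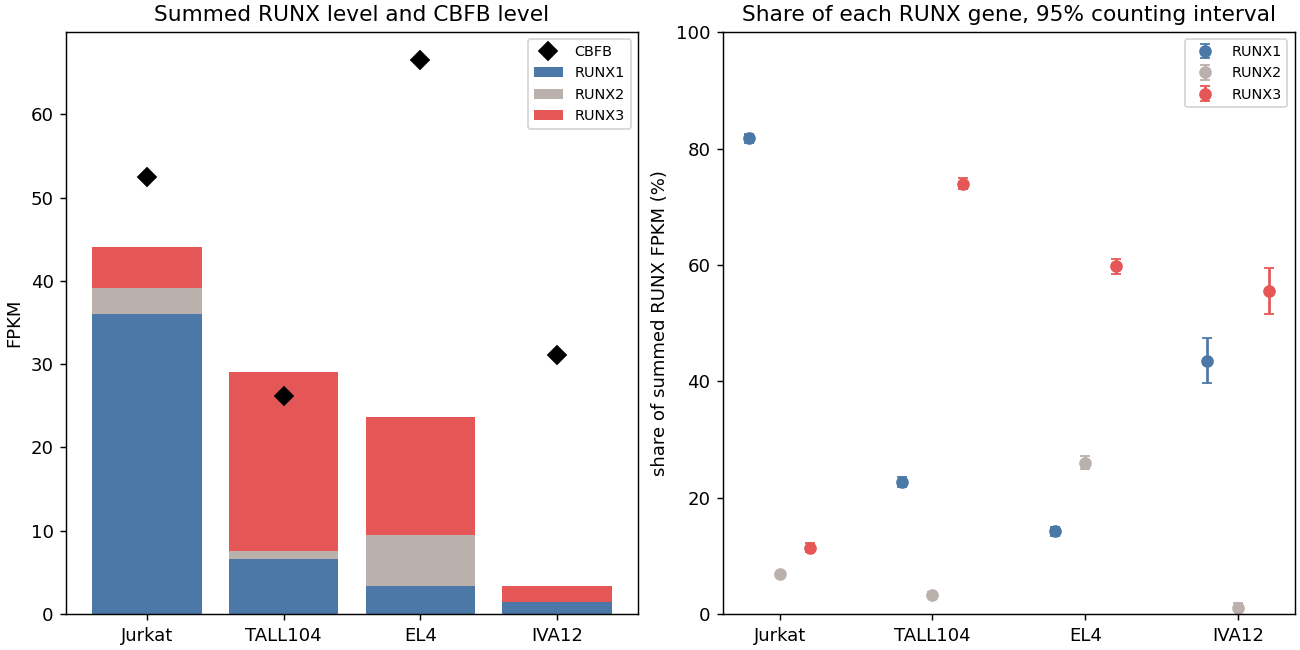
Left, summed FPKM of RUNX1, RUNX2 and RUNX3 (stacked bars) and FPKM of CBFB (diamonds) in the 4 libraries, and right, the share of each RUNX gene in that sum in percent with 95% counting intervals. The bar is mostly RUNX1 in Jurkat and mostly RUNX3 in TALL104 and EL4, and in IVA12 the CBFB diamond lies far above a sum of 3.34 FPKM.

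TOX, an HMG-box factor needed for the CD4 lineage and later raised in exhausted CD8 T cells, did not pass 1.5-fold between the human lines. It is on human chromosome 8 (minus strand) and overlaps TOX-DT on the other strand. Jurkat had 5888 reads and 41.0 FPKM, and TALL104 had 4056 reads and 34.6 FPKM. The ratio was 1.18 (1.14 to 1.23), which is above 1 in counting terms but under the threshold. In the mouse pair Tox (chr4:6686353-6991557, mm10, minus strand) had 5650 reads and 23.1 FPKM in EL4 and 3 reads and 0.0156 FPKM in IVA12. The ratio was 1481, with a counting interval from 507 to 7185. Human rows of the 9 genes held up to 17 reads in IVA12 (on CBFB), with 1 read on TOX and 3 on THEMIS. The 3 reads of Tox were of the size of these counts, which do not measure the background of mouse rows.

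THEMIS, a protein that tunes T-cell receptor signaling during thymocyte selection, followed the pattern of TOX. It lies at chr6:128029217-128239776 (hg19, minus strand). Jurkat had 3982 reads and 26.6 FPKM, and TALL104 had 2623 reads and 21.5 FPKM, a ratio of 1.24 (1.18 to 1.30). Themis (chr10:28668360-28883818, mm10, plus strand) had 5830 reads and 20.1 FPKM in EL4 and 1 read in IVA12, at 0.00438 FPKM, also of the size of the counts on human rows. The ratio was 4586 (823 to 181149), the widest interval of the 9 genes among those with an upper limit. All 3 T lines held TOX and THEMIS at levels between 20.1 and 41.0 FPKM. The TOX level was 1.54 times the THEMIS level in Jurkat (1.48 to 1.61), 1.61 times in TALL104 (1.54 to 1.69) and 1.15 times in EL4 (1.11 to 1.19).

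**Figure D3:**
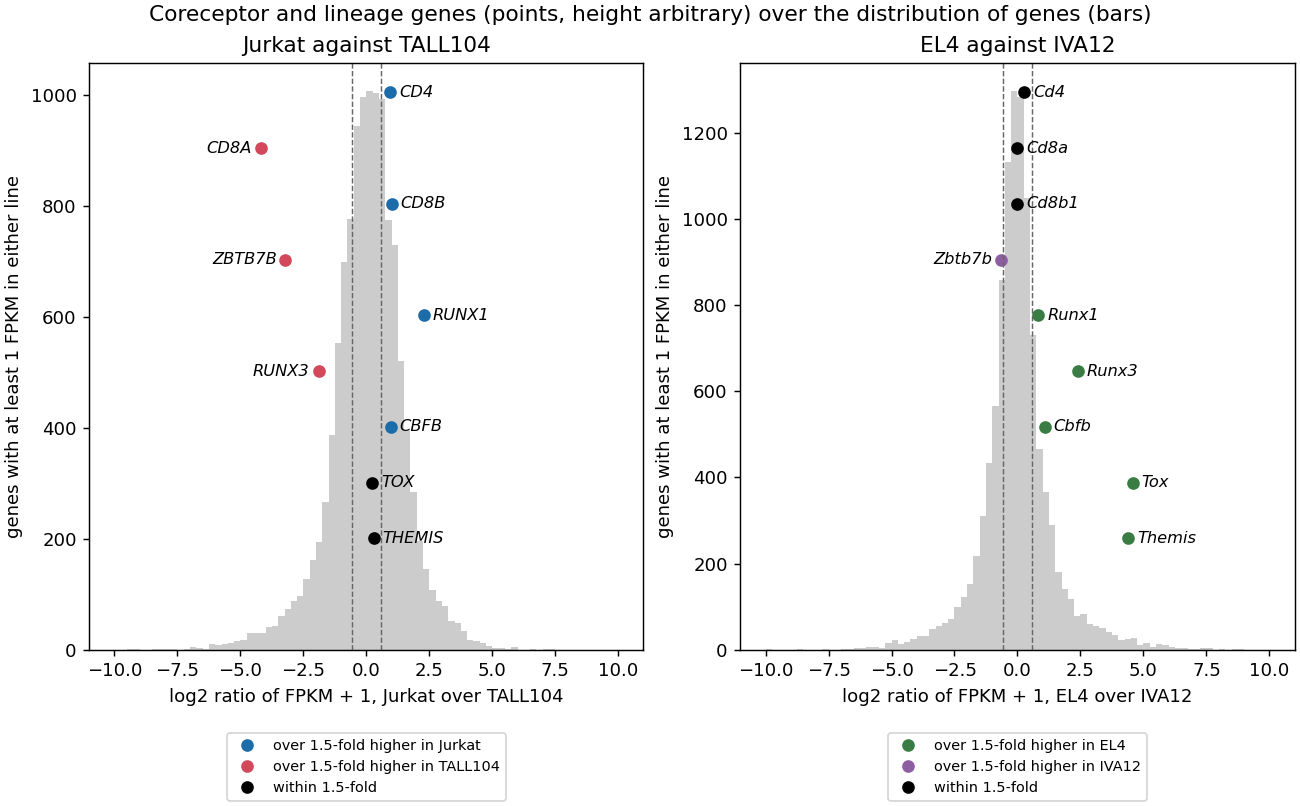
Log2 ratio of FPKM + 1 for the 9 genes (points, at arbitrary height) over the distribution of all genes with at least 1 FPKM in either line (gray bars, number of genes), for Jurkat over TALL104 (left) and EL4 over IVA12 (right), with dashed lines at 1.5-fold. CD8A lies in the left tail at -4.19 in the human pair, and Tox and Themis lie in the right tail at 4.57 and 4.39 in the mouse pair.

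RUNX proteins bind TGTGGT or TGCGGT, and these letters were looked for on both strands of RefSeq promoter windows (GRCh38.p14, 250 bases before to 50 after each start). Of 35116 human windows 19.6% held at least 1 such motif. Windows were at hand for 5 of the 9 genes (CD8A, ZBTB7B, RUNX1, RUNX3 and THEMIS), 12 windows in all, of which 3 held a motif, 1 each of CD8A, RUNX3 and THEMIS. They are shown because RUNX proteins are among the factors described here, on the strand of the gene, with the motif or its reverse complement in capitals. The search found letters only, and binding was not measured. The windows of ZBTB7B and RUNX1 held no match.
CD8A, chr2:86791821-86791850, minus strand: ccaggccgagggACCGCAagtgcaagggcg
RUNX3, chr1:24965116-24965145, minus strand: ctcaaccacagaACCACAaggccaggccct
RUNX3, chr1:24965124-24965153, minus strand: cctggtccctcaACCACAgaaccacaaggc
THEMIS, chr6:127918661-127918690, minus strand: aacatgggtttaACCACAtcaaaatttaga
THEMIS, chr6:127918822-127918845, minus strand: tcaattTGTGGTtccagtttttac
The 2 stretches of RUNX3 overlap, so each shows the other's motif in lower case.

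At 1.5-fold, more of the close relatives of the 9 genes were higher in TALL104 than in Jurkat, and more in IVA12 than in EL4. In the human pair 1 of 8 measured relatives was higher in Jurkat, 4 were higher in TALL104 and 3 were within 1.5-fold (median log2 ratio -0.43). Of the 4 higher in TALL104, LAG3 and TOX2 stayed below the detection level in both human lines. With only genes that reached 1 FPKM, 2 were higher in TALL104 and 1 in Jurkat. With a 2-fold threshold 1 was higher in each human line, so the human excess depended on these settings. RUNX2 was the one that was higher in Jurkat, at 3.02 FPKM against 0.969. THEMIS2, the relative of THEMIS in B cells and myeloid cells, had 0.411 FPKM in Jurkat and 6.01 in TALL104. Among the mouse relatives 2 of 8 were higher in EL4, 4 were higher in IVA12 and 2 were within 1.5-fold (median -0.41). Themis2 had 0.0101 FPKM in EL4 (1 read) and 32.4 in IVA12, so Themis and Themis2 had opposite orders there. Tox3 was at 0 reads in EL4 and 9.75 FPKM in IVA12, the reverse of Tox, whereas Tox2 had 1.65 FPKM in EL4 and 0.709 in IVA12. The counts of this list and of those below stand beside general shares. Among human genes that reached 1 FPKM, 34.2% were higher in Jurkat and 28.4% in TALL104. The mouse shares were 23.8% for EL4 and 26.5% for IVA12. No list was tested against these shares.

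The cofactors of RUNX proteins included corepressors, acetyltransferases and methyltransferases. In the human pair 3 of 11 were higher in Jurkat, 6 were higher in TALL104 and 2 were within 1.5-fold, with opposite signs of the median (-0.71) and the mean (0.03). CBFA2T3, a corepressor of the ETO family, had 11.0 FPKM in Jurkat and 0.526 in TALL104, and PRMT1, an arginine methyltransferase, had 62.6 and 14.9. CREBBP, an acetyltransferase, had 5.45 FPKM in Jurkat and 19.7 in TALL104, and CBFA2T2 had 4.10 and 12.6. Of the mouse counterparts 1 of 11 was higher in EL4, 3 were higher in IVA12 and 7 were within 1.5-fold (median -0.29). Hipk2, a kinase of RUNX1 complexes, had 4.54 FPKM in EL4 and 1.38 in IVA12. The corepressor gene Tle1 had 0.00357 FPKM in EL4 (1 read) and 4.12 in IVA12, and Cbfa2t3 had 0.143 and 4.60.

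Of factors that act before ZBTB7B or in the preselection thymocyte, more were higher in Jurkat than in TALL104, and more in EL4 than in IVA12. In the human pair 6 of 11 were higher in Jurkat, 1 was higher in TALL104 and 4 were within 1.5-fold (median 0.68). The general shares past 1.5-fold in either direction, over genes that reached 1 FPKM, were 62.6% (human) and 50.3% (mouse). MYB had 88.8 FPKM in Jurkat and 0.508 in TALL104, and LEF1 had 141 and 18.4, the reverse of ZBTB7B. BCL6, a repressor that acts in follicular helper T cells and germinal center B cells, had 0.523 FPKM in Jurkat and 6.71 in TALL104. GATA3, which acts before ZBTB7B in helper fate, was within 1.5-fold, at 15.1 and 14.4 FPKM. Between the mouse lines, 6 of 11 were higher in EL4, 2 were higher in IVA12 and 3 were within 1.5-fold (median 1.38). Tcf7 had 597 FPKM in EL4 and 1.15 in IVA12, and Gata3 had 25.7 and 0.0199 (2 reads). Satb1, an organizer of thymocyte chromatin, had 0 reads in EL4 and 0.840 FPKM in IVA12, and Bcl6 had 0.237 and 0.903. Both were below the detection level in IVA12. With only genes that reached 1 FPKM, 0 rather than 2 of this list were higher in IVA12.

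Repressors and chromatin proteins tied to the coreceptor loci gave 8 of 10 genes higher in Jurkat, 0 higher in TALL104 and 2 within 1.5-fold (median 0.89). Past 1.5-fold in either direction were 62.6% of human genes that reached 1 FPKM, and 50.3% of such mouse genes. SMARCA4, the ATPase of the BAF remodeling complex, had 48.1 FPKM in Jurkat and 13.8 in TALL104, and SMARCC1, another subunit, had 74.4 and 24.9. For the mouse genes, 1 of 10 was higher in EL4, 0 were higher in IVA12 and 9 were within 1.5-fold (median 0.07). The 1 was Hdac1, a histone deacetylase, at 71.3 FPKM in EL4 and 43.7 in IVA12.

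Of cytotoxic fate factors more were higher in TALL104, as RUNX3 was, than in Jurkat. Of 10 genes 1 was higher in Jurkat, 6 were higher in TALL104 and 3 were within 1.5-fold (median -1.91). For comparison, 62.6% of human and 50.3% of mouse genes that reached 1 FPKM passed in either direction. IL2RB, the receptor chain for interleukin-2 and interleukin-15, had 0.911 FPKM in Jurkat and 104 in TALL104, and BHLHE40 had 1.62 and 117. IL7R had 3.25 FPKM in Jurkat and 1.48 in TALL104. Among the mouse factors, 6 of 10 were higher in EL4, 2 were higher in IVA12 and 2 were within 1.5-fold (median 0.67). Tbx21, counted among the 6, was below the detection level in EL4 at 0.613 FPKM. Il2rb was at 0.402 FPKM in EL4, and Eomes had 0 reads in both mouse lines. Il7r had 42.0 FPKM in EL4 and 0.0123 in IVA12 (1 read), and Bhlhe40 had 16.4 and 0.0336 (4 reads). Prdm1, which also directs plasma cells, had 0.300 FPKM in EL4 and 18.9 in IVA12, and Irf1 had 6.49 and 19.4.

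Of signaling proteins around the coreceptors and THEMIS, more were higher in TALL104 than in Jurkat, and more in EL4 than in IVA12. In the human pair 1 of 13 was higher in Jurkat, 6 were higher in TALL104 and 6 were within 1.5-fold (median -0.47). The general share past 1.5-fold in either direction, over genes that reached 1 FPKM, was 62.6% here and 50.3% in the mouse pair. LCK, the kinase bound by CD4 and CD8, reached 190 FPKM in Jurkat and 173 in TALL104. The CD4 level was at most 0.985 FPKM in these lines, and CD8A was at 0.601 FPKM in Jurkat and 28.3 in TALL104. PTPN11, a phosphatase, had 67.3 FPKM in Jurkat and 28.3 in TALL104, whereas the adaptor PAG1 had 6.76 and 35.7. Of the mouse signaling genes 7 of 13 were higher in EL4, 1 was higher in IVA12 and 5 were within 1.5-fold (median 2.46). Lat, an adaptor, had 106 FPKM in EL4 and 0.143 in IVA12, and Lck had 96.5 and 0.527. Plcg1 had 1.64 FPKM in EL4 and 5.09 in IVA12.

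**Figure D4:**
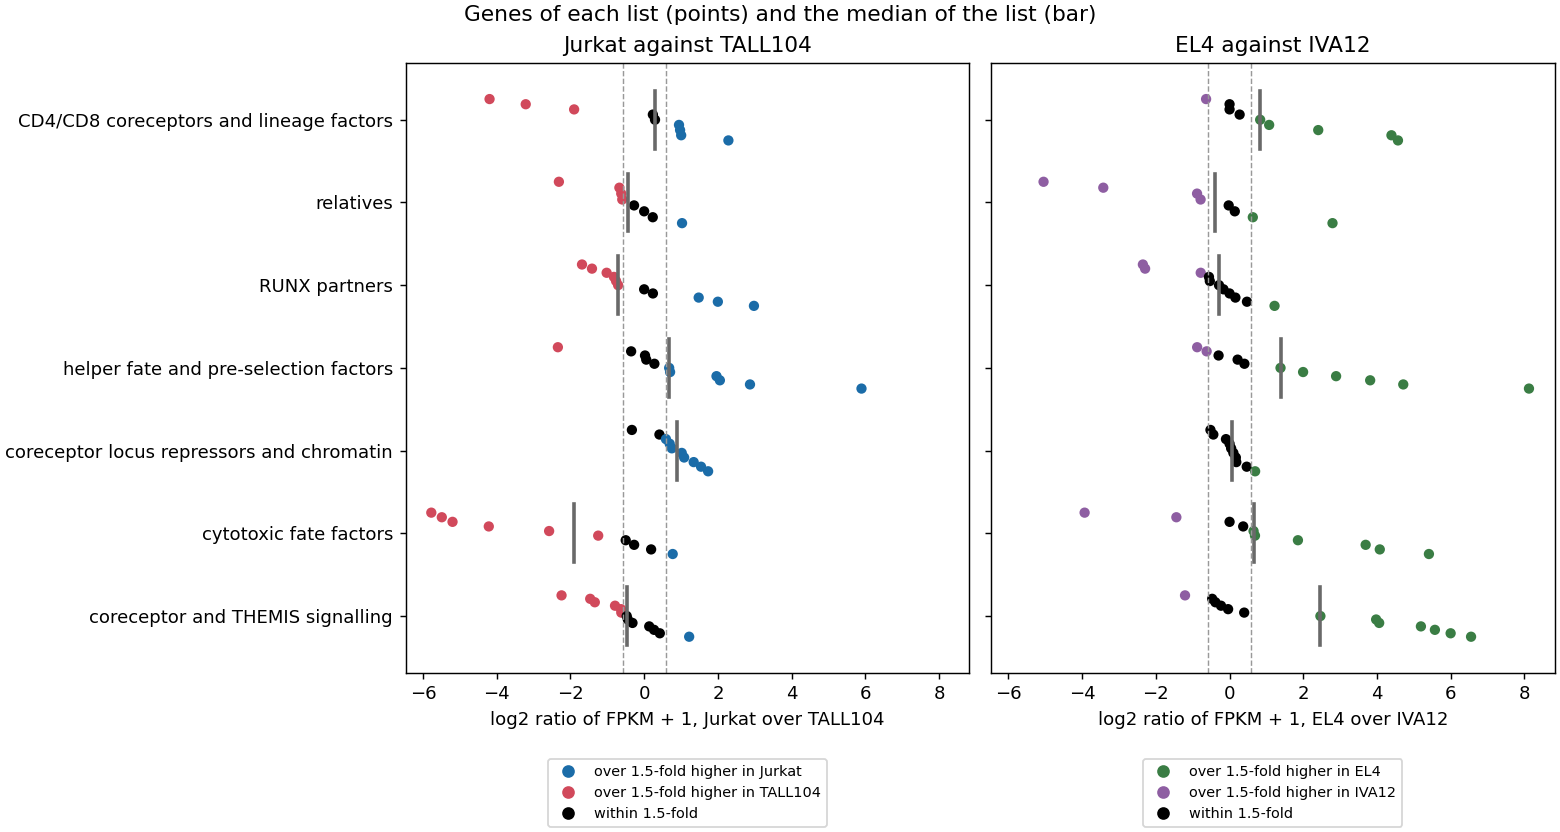
Log2 ratio of FPKM + 1 of each gene (points) and the median (vertical bar) of the 9 genes and of 6 related lists, for Jurkat over TALL104 (left) and EL4 over IVA12 (right), with dashed lines at 1.5-fold. The median of the cytotoxic fate factors is -1.91 for the human lines and 0.67 for the mouse lines, and the coreceptor and THEMIS signaling genes have a median of 2.46 in the mouse pair.

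Markers of other cell types were read beside these results. In the human pair, 4 of 6 T-cell markers were higher in Jurkat and 2 were within 1.5-fold, and 3 of 3 NK-cell markers (NCR1, NCAM1 and KLRD1) were higher in TALL104, with a summed level of 0.146 FPKM in Jurkat and 56.6 in TALL104. The NK-cell markers had the direction of CD8A, ZBTB7B and RUNX3, and their part in those results was not tested. In the mouse pair, 6 of 6 T-cell markers were higher in EL4 (summed 589 FPKM against 12.6) and 4 of 4 plasma-cell markers were higher in IVA12 (16.3 against 1982). Of 5 B-cell markers 2 were higher in IVA12 (summed 0.553 in EL4 and 210 in IVA12), while Pax5 and Cd79a were at 0.156 and 0.0543 FPKM in IVA12. These markers moved with Tox, Themis, Runx3 and Zbtb7b, and their part in those results was not tested. Of the remaining lists, 1 of 5 B-cell markers, 2 of 4 plasma-cell markers and 1 of 4 myeloid markers were higher in TALL104 and 1 plasma-cell marker was higher in Jurkat. Among the mouse markers 1 of 4 myeloid genes (Cd68) was higher in IVA12. The 3 NK-cell markers were at 0 in both mouse lines, and the myeloid marker CSF1R was at 0 in all 4 lines.

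For the 7 genes that reached 10 FPKM in any line, the genes of most similar profile were found by Euclidean distance of log2(FPKM + 1) over the 4 lines, among 15550 genes with the same symbol in both species. Nearest to CD8A were CRIM1 (distance 0.166) and TNFAIP8L2 (0.205), which had 25.7 and 28.8 FPKM in TALL104 and under 1 FPKM in the other 3 lines. THEMIS lay nearest to LRRFIP1 (0.251) and DAP (0.345), and CBFB lay nearest to IDH3B (0.342) and GPX1 (0.352). Nearest to TOX were SH3KBP1 (0.424) and MYO1G (0.518). The distances were larger for ZBTB7B, with HAP1 (0.492) and PCED1B (0.582), for RUNX3, with ITPKB (0.593) and MVB12B (0.597), and for RUNX1, with COTL1 (0.637). Each distance rests on 4 libraries and on levels of human and mouse genes set side by side. No other member of the 9 was among these nearest genes.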

How the data were processed

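Messenger RNA of 4 cell lines was sequenced from stranded libraries, 1 per line. Per the study's methods and the submitters' processing notes, reads were aligned with STAR 2.5.1b to the joint hg19 and mm10 reference of Cell Ranger 1.2.0 (Ensembl 82 and 84) and counted per gene with featureCounts 1.6.3. The authors deposited the values as FPKM. Not given in the sources used here are the gene lengths, the strand setting, whether a read pair was counted once and how reads that align more than once were treated. The table held 0 further columns per sample.

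Library totals were solved for from the steps between values, with lengths up to 300000 bases allowed, and then 100% of the FPKM above 0 in each library came out as whole reads (relative tolerance 1e-12). Jurkat had 34783047 reads, TALL104 28345951, EL4 32149319 and IVA12 25286728. The annotated exon length was taken wherever the length found divided it, and the length used equalled it for 9 of the 18 rows. Among these, Cd8a and Cd8b1 had 0 reads in every library, so their lengths came from the annotation alone. Where the length used differed, the reads may lack a whole factor, which would make their intervals too wide. Symbols and positions came from GENCODE (human release 44 on hg19 and a mouse release on mm10), matched by identifier for 31182 human and 27645 mouse genes. No count model was run, as it needs replicates.

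Lines were compared within a species on FPKM + 1. The 9 genes and all gene lists were chosen with earlier results of these data known. The text names all 9 genes, for each list and pair the top 2 genes per direction by log2 ratio among those past 1.5-fold, and for each of the 9 genes with at least 10 FPKM in any line the 2 genes of nearest profile. Some genes that this rule names are not reported here. GATA3, LCK, LAG3, Tbx21, Il2rb, Eomes, the markers and the genes beside the coreceptor loci were added after their values were seen. Alternatives were a pseudocount of 0.1 or 0.01, only genes that reached 1 FPKM, equal own-species totals, median ratio scaling, leaving out mitochondrial genes, a 2-fold threshold, and RUNX shares by reads or from RUNX1 and RUNX3 only. The calculation was tested on simulated data. Python 3.11.15, NumPy 2.4.6, pandas 2.3.3, SciPy 1.17.1 and matplotlib 3.10.9 were used.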

Additional observations from a re-analysis of the deposited data

Results flagged for a closer look

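Reads of the 9 genes of the other species were looked at in each library, since the reference held both genomes and a line should hold reads of its own species only. Above the 3 reads taken as the level a count of 0 allows were human CD8A at 4 reads, ZBTB7B at 4 reads, RUNX1 at 7 reads and CBFB at 17 reads in IVA12, and human RUNX1 at 4 reads in EL4. The 17 reads of CBFB in IVA12 were 0.163 FPKM. In all, the other-species rows of the 9 genes held 41 reads in IVA12, 12 in EL4, 11 in TALL104 and 2 in Jurkat. The 3 reads of Tox and the 1 read of Themis in IVA12, and the 4 reads of CD4 in TALL104, were of the size of these counts. The source of the reads was not tested.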

How the results depend on the processing

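With a 2-fold threshold the genes higher in Jurkat were 2 rather than 4, and those higher in IVA12 were 0 rather than 1. By reads without length the RUNX3 share was 47.2% in TALL104, 42.9% in EL4, 34.7% in IVA12 and 3.81% in Jurkat, and from RUNX1 and RUNX3 only it was 76.5% in TALL104, 80.8% in EL4, 56.1% in IVA12 and 12.3% in Jurkat. The other 40 counts of the 9 genes stayed within 1.5 times of the reported ones, and no log2 ratio of the 9 genes changed sign under any alternative. Of the counts of the related lists and markers under the alternatives, 280 stayed within 1.5 times of the reported ones and 28 did not. Ratios with a low level in either line moved most: with a pseudocount of 0.01 the log2 ratio was 10.45 for Themis, 9.82 for Tox, 4.61 for CD4 and 4.45 for Cd4, which then passed 1.5-fold. Genes with at least 1 FPKM in both human lines had a median log2 ratio of 0.11, and scaling by it gave 0.13 for TOX and 0.19 for THEMIS. No paired analysis was possible because each line had 1 library, so no replicate could be left out either. Depth limits CD4 and CD8B in TALL104, Tox and Themis in IVA12, and the mouse coreceptor genes, each with fewer than 10 reads in at least 1 line.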
